A study of Mus musculus with 24 samples.

Results

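The interferon-stimulated genes followed here are Isg15, Ube2l6, Usp18, Ifit1, Ifit2, Ifit3, Irf7, Irf1 and Gbp2, measured in mouse brown and white fat cells grown in primary culture. They were chosen by name, with earlier results of these data known, and each probe set annotated with 1 of these symbols and no other was used. All 9 genes were found, on 10 of the 12488 probe sets of the Affymetrix Murine Genome U74Av2 array, with 2 probe sets for Irf7 and 1 for each other gene. All 10 were among the 8397 probe sets bright enough to be tested.

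The groups were brown cells at day 7 after isolation (n = 5 arrays), brown cells at day 4 (n = 5), white cells at day 7 (n = 6) and white cells at day 4 (n = 8). The labels call the day 7 cells differentiated and the day 4 cells not differentiated, and the study set out to compare precursor and mature cells of both kinds of fat. The labels name no strain, age, sex, fat depot, allele or added agent for any group, and no interferon or other stimulus. Each array is called by its group and the number in its label. Nothing in the labels tells whether arrays came from different animals or cultures, so the p-values measure only how far these arrays spread, and that spread may be technical. Brown and white arrays shared no run of numbers, so a difference in handling and a difference between the kinds of fat cannot be told apart.

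Interferons are secreted proteins that warn cells of infection. Type I interferons bind the receptor chains Ifnar1 and Ifnar2, whose kinases Jak1 and Tyk2 activate transcription factors, among them Stat2, which joins Irf9 on a DNA element called the interferon-stimulated response element. Interferon gamma uses Ifngr1 and Ifngr2 and acts through another element, the gamma activation site. Many of the genes that answer are antiviral effectors, while others, such as Irf7 and Usp18, amplify or damp the signal, and most cells, fat cells and their precursors among them, carry the receptors and keep a low basal level of these transcripts.

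Promoter sequences from 250 bases before to 50 bases after the transcript start were taken from RefSeq (build GRCm38.p6) and were given for 8 of the 9 genes, Usp18 being the exception. The response element, searched on both strands as GAAA, any 2 bases and GAAA, was found in 4 of these 8 genes, Ifit1, Ifit3, Isg15 and Gbp2, and in 3.99% of all 27025 genes with a promoter in the same table. The shorter element bound by interferon regulatory factors, searched as GAAANNGAA, lies inside every match to the longer one. It was found in the same 4 genes and in 9.76% of all genes. The gamma activation site, searched as TTCNNNGAA, was found in Ifit2 and Irf1 and in 9.55% of all genes. The stretches of Ifit1, Isg15 and Gbp2 below are shown because they carry the element upstream of the annotated gene. They read 5′ to 3′ on the strand of the gene, and capitals mark matches to either of the first 2 patterns, which on the opposite strand read as TTTC, or TTC for the shorter pattern, then any 2 bases and TTTC.
Ifit1, chr19:34640765-34640828, plus strand: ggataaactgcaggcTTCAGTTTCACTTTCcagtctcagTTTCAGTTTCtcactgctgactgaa
Isg15, chr4:156200856-156200915, minus strand: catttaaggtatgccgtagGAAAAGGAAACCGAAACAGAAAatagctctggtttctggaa
Gbp2, chr3:142620579-142620638, plus strand: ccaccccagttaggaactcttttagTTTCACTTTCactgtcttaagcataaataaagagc
The matches of Ifit3 lie upstream of the transcript start that the promoter table uses, but that start is inside the annotated locus given for Ifit3 below, so its stretch is not shown. Isg15 holds 3 overlapping matches to the longer pattern, Ifit1 and Ifit3 hold 2 each, and Gbp2 holds 1. The matched letters lay between bases -109 and -76 in Ifit1, -156 and -94 in Ifit3, -78 and -57 in Isg15, and -59 and -50 in Gbp2, counted from the start in the promoter table.

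Signals are linear, and each array had been scaled to a trimmed mean near 150, with array medians of 41.9 to 59.0. The labelled cell kinds held in their tested markers: 4 of 4 tested brown adipocyte markers were higher in brown cells on both days. Over all tested genes 11.7% were higher at day 4 and 13.2% at day 7. Ucp1, the uncoupling protein of brown fat, did not pass the filter. Its median signals at day 7 and day 4 were 53.1 and 19.4 in brown cells, and 8.71 and 5.34 in white cells. Ppargc1a did not pass either, with medians of 7.13 and 6.61 in brown cells and 10.8 and 4.95 in white cells on these days. White day 7 arrays differed in RNA quality. Their ratio of 3′ to 5′ signal for Gapdh, which grows as RNA breaks down, averaged 1.36 ± 0.204 (SD, n = 6), against 0.943 ± 0.0955 at white day 4 (SD, n = 8), and it was 0.889 ± 0.0379 in brown day 7 and 0.884 ± 0.0825 in brown day 4 cells (SD, n = 5 each). In whole cultures, fewer cells of a type and less RNA per cell cannot be told apart.

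Part of the interferon-stimulated genes was higher in brown than in white cells on both days, and none was called lower. At day 4, 5 of the 10 probe sets were higher in brown than in white cells and 0 were lower, against 10.8% and 12.2% of all tested probe sets. At day 7 the count was again 5 higher and 0 lower, against 12.8% and 12.3% of all. Isg15, Usp18, Ifit1 and the Irf7 probe set 104669_at were called on both days. With culture time, 2 probe sets fell and 1 rose in brown cells, against 6.05% and 6.0% of all, and 3 fell and 0 rose in white cells, against 10.6% and 8.36% of all. Calls are those with an adjusted p below 0.05 in limma, over all 8397 probe sets. Because the genes were chosen with earlier results of these data known, the shares of all probe sets are not a neutral yardstick for these counts. The median log2 difference of the 10 probe sets, brown minus white, was 0.65 at day 4 and 0.72 at day 7, where the median over all tested probe sets was 0.01 at day 4 and 0.00 at day 7. For day 7 minus day 4 it was -0.49 in brown and -0.02 in white cells, against 0.01 over all tested probe sets in both.

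**Figure D1:**
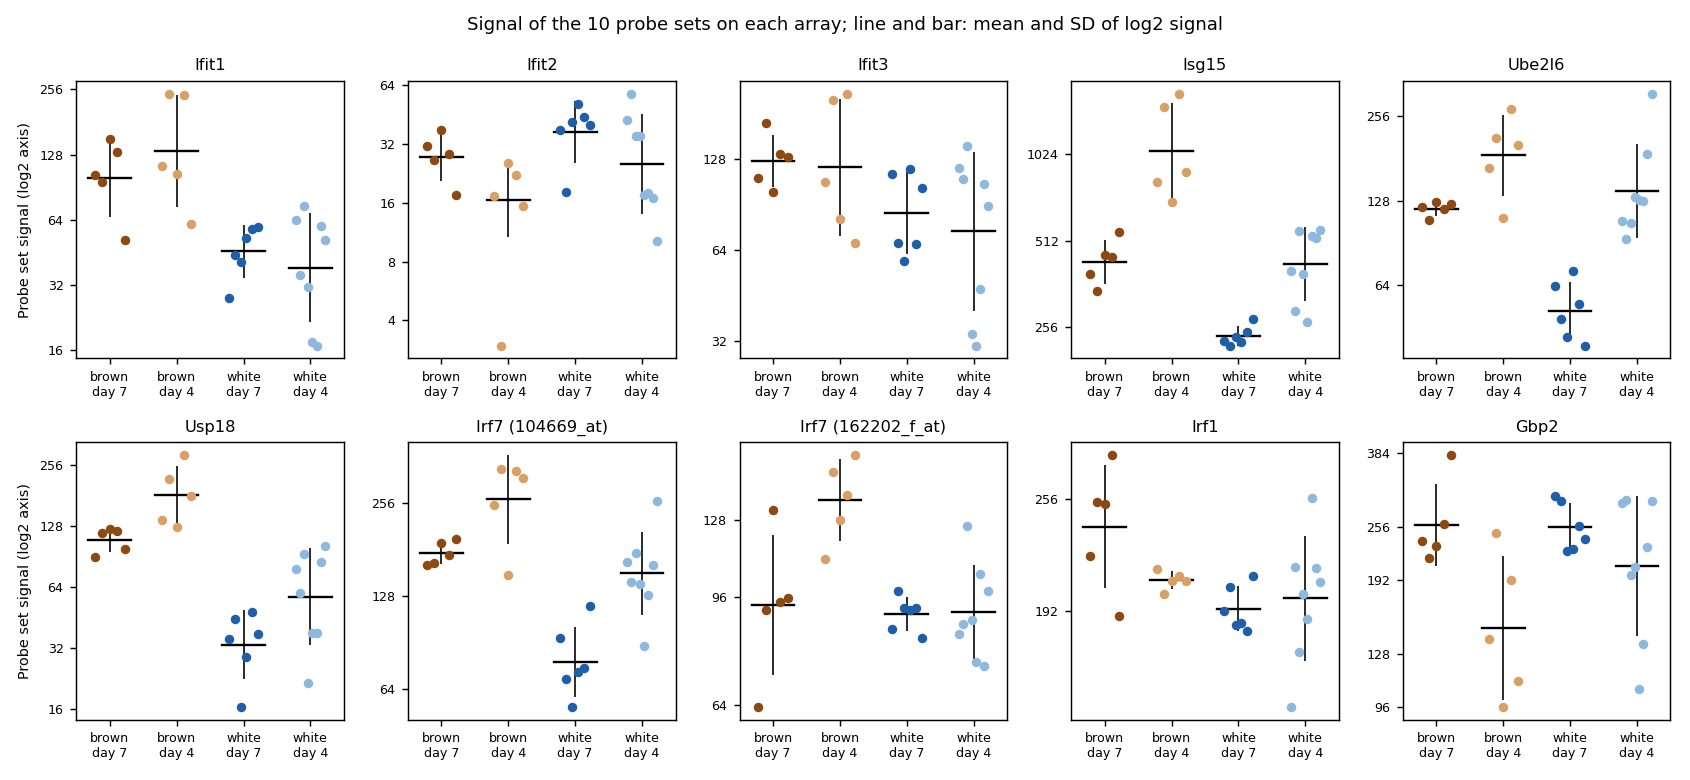
Signal of each of the 10 probe sets (vertical axis, linear signal on a log2 scale) on each array, with the groups side by side and the line and bar giving mean and SD of log2 signal. The 5 brown day 4 arrays of Isg15 sit between 699 and 1667, above the arrays of the other 3 groups.

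Isg15 encodes a small ubiquitin-like protein that is attached to other proteins during an interferon response (chr4:156199424-156200818). Its signal was 391, 343, 458, 449 and 548 on the brown day 7 arrays and 821, 1494, 699, 1667 and 889.6 on the brown day 4 arrays. In white cells the lowest, median and highest values were 220.2, 233 and 274 at day 7 and 266, 462 and 558 at day 4. The 5 brown day 4 arrays lay above all others, white day 7 arrays lay lowest apart from an overlap with white day 4, and the brown day 7 and white day 4 ranges overlapped. Isg15 fell by 1.28 ± 0.22 on the log2 scale with time in brown cells (SE, adjusted p = 0.000448) and by 0.83 ± 0.19 in white cells (adjusted p = 0.00332). Brown cells exceeded white cells 2.48-fold at day 4 (adjusted p = 2.77e-05) and 1.81-fold at day 7 (adjusted p = 0.00366). In order of mean signal, brown day 4 (1114 ± 435, SD) came first and white day 7 (239 ± 19.3) last, and between them white day 4 (439 ± 119) and brown day 7 (438 ± 77.1) lay closer than the spread of either.

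Ube2l6 encodes the conjugating enzyme that passes Isg15 on to its targets (chr2:84798828-84810003). Its signal was 121, 109, 126, 119 and 124 in brown day 7 cells and 167, 214, 111, 273 and 202 in brown day 4 cells. White cells gave 38.8, 51.4 and 71.5 at day 7 and 93.7, 128 and 308 at day 4 (lowest, median, highest). Every white day 7 array lay below every array of the other 3 groups. Ube2l6 fell by 1.42 ± 0.22 with time in white cells, 2.67-fold (adjusted p = 0.00015), and was 2.31-fold higher in brown than in white cells at day 7 (adjusted p = 0.00068). At day 4 the difference between brown and white, 0.42 ± 0.23, did not pass (adjusted p = 0.204, 95% interval -0.05 to 0.90), nor did that with time in brown cells, -0.63 ± 0.26 (adjusted p = 0.116). The day 4 difference passed without white day 4 array 51 (adjusted p = 0.0284) or with array weights (0.04), and the brown change passed without brown day 4 array 09 (0.047), with array weights (0.0271) or without white day 4 arrays 45 and 51 (0.0324).

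Usp18 encodes the protease that takes Isg15 off its targets and also damps signalling at the type I receptor (chr6:121245906-121270917). The 5 brown day 7 signals were 90.5, 118, 123, 121 and 98.5, and the 5 brown day 4 signals were 137, 216, 126, 285 and 179.7. White cells gave 16.4, 36.5 and 48.1 at day 7 and 21.6, 69.3 and 102 at day 4. On both days every brown array lay above every white array of the same day, and all brown day 4 arrays lay above all brown day 7 arrays. Usp18 was 3.14-fold higher in brown than in white cells at day 4 (adjusted p = 0.000362) and 3.29-fold higher at day 7 (adjusted p = 0.000389). The change with time was -0.72 ± 0.35 in brown cells (adjusted p = 0.19) and -0.79 ± 0.30 in white cells (adjusted p = 0.0612), so neither passed over all probe sets, although the brown groups did not overlap. The white change passed without any 1 of white day 4 arrays 38, 41 and 42 or white day 7 array 43, with adjusted p of 0.0104 to 0.049, and the brown change passed when only brown arrays were fitted (0.0485).

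The Ifit genes encode proteins that bind viral RNA or block translation, and their 3 loci lie close together on chromosome 19. Ifit1 (chr19:34640889-34650009) gave 103, 95.1, 152, 132 and 51.5 in brown day 7 cells and 113, 245, 104, 242 and 60.8 in brown day 4 cells. In white cells its lowest, median and highest signals were 27.7, 48.3 and 59.3 at day 7 and 16.7, 43.6 and 73.7 at day 4. One brown array of each day, 22 at day 7 and 19 at day 4, lay within the white range of its own day, and the other brown arrays lay above it. Ifit1 was 3.47-fold higher in brown than in white cells at day 4 (adjusted p = 0.000819) and 2.20-fold higher at day 7 (adjusted p = 0.034). The day 7 call ended without any 1 of 7 arrays, namely 07, 08, 11 and 12 of brown day 7 or 35, 36 and 39 of white day 7, with adjusted p of 0.0544 to 0.0941, and it also ended with no filter (0.0722) or with array number runs as a random block (0.168). Changes with time were -0.41 ± 0.41 in brown cells (adjusted p = 0.586) and 0.25 ± 0.35 in white cells (adjusted p = 0.672).

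Ifit3, which binds and stabilises Ifit1 in human cells, passed in no comparison (chr19:34583119-34588982). Its signals were 99.5 to 168 in brown day 7, 67.4 to 210.3 in brown day 4, 59.1 to 119 in white day 7 and 30.9 to 141 in white day 4 cells, and all 4 ranges overlapped. The brown minus white difference was 0.70 ± 0.34 at day 4 (adjusted p = 0.147) and 0.57 ± 0.36 at day 7 (adjusted p = 0.269). Ifit2 was dimmer (chr19:34550550-34576534). It gave 17.5 to 37.9 in brown day 7, 2.97 to 25.4 in brown day 4, 18.1 to 51.1 in white day 7 and 10.2 to 57.8 in white day 4 cells, with brown day 4 array 06 under the floor of 8.21. Its brown minus white differences were -0.61 ± 0.37 at day 4 (adjusted p = 0.249) and -0.43 ± 0.39 at day 7 (adjusted p = 0.467). They lay below 0 where those of Ifit1 and Ifit3 were above 0. The changes of Ifit2 with time were 0.73 ± 0.41 in brown (adjusted p = 0.269) and 0.55 ± 0.35 in white cells (adjusted p = 0.288). None of its 4 comparisons passed.

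Irf7 encodes the transcription factor that amplifies type I interferon production and is itself induced by interferon (chr7:141263183-141266499). Its probe set 104669_at gave 162, 164, 191, 174 and 196 in brown day 7 cells and 253, 332, 150.2, 326 and 308 in brown day 4 cells. White cells gave 55.7, 73.6 and 118 at day 7 and 87.9, 151 and 260.3 at day 4. All brown day 7 arrays lay above all white day 7 arrays. It was 1.74-fold higher in brown than in white cells at day 4 (adjusted p = 0.00729) and 2.26-fold higher at day 7 (adjusted p = 0.000365), and it fell 1.93-fold with time in white cells (adjusted p = 0.00189). The change with time in brown cells, -0.58 ± 0.24, did not pass (adjusted p = 0.116), but it did without brown day 4 array 09 (0.0295) or with array weights (0.0399).

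The other Irf7 probe set, 162202_f_at, differed from it in its call in 3 of the 4 comparisons. Its suffix marks a set that may also bind related sequences, and no accession was given for it. It ranged from 63.6 to 133 in brown day 7, 111 to 164 in brown day 4, 82.3 to 98.1 in white day 7 and 74.2 to 125 in white day 4 cells. The brown day 4 arrays overlapped those of brown day 7 and white day 4 only at their lower end. It was 1.52-fold higher in brown than in white cells at day 4 (adjusted p = 0.00592) and fell 1.48-fold with time in brown cells (adjusted p = 0.0303). At day 7 its brown minus white difference was 0.05 ± 0.17 (adjusted p = 0.872, 95% interval -0.29 to 0.39), and its change in white cells was -0.01 ± 0.15 (adjusted p = 0.97). The brown call ended without any 1 of 6 arrays, with adjusted p of 0.0573 to 0.118: arrays 06, 10 and 19 of brown day 4 or 07, 08 and 12 of brown day 7. It also ended with array number runs as a fixed block (0.0625) or with brown arrays alone (0.0809).

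Irf1, the first interferon regulatory factor described and a target of interferon gamma signalling, showed narrow ranges (chr11:53770014-53778374). Its signals were 189.7 to 286 in brown day 7, 201 to 214 in brown day 4, 183 to 210.4 in white day 7 and 150.5 to 256 in white day 4 cells. The ranges overlapped, and no comparison passed. The largest difference, 0.30 ± 0.13 for brown minus white at day 7, had an adjusted p of 0.0794 and a 95% interval of 0.04 to 0.56. It passed without brown day 7 array 22 (adjusted p = 0.0282) or with array weights (0.00668).

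Gbp2 encodes a guanylate-binding protein, a GTPase that attacks the vacuoles and membranes of intracellular microbes (chr3:142620663-142638008). Its signal was 237, 216, 231, 261 and 379.9 in brown day 7 cells and 139, 248, 95.7, 192 and 111 in brown day 4 cells. White cells gave 225, 249 and 304 at day 7 and 106, 218 and 297 at day 4. Brown day 4 array 06 lay within the day 7 range, and the other 4 brown day 4 arrays lay below it. Gbp2 was the only member called higher with time in brown cells, by 0.81 ± 0.26 on the log2 scale (1.76-fold, adjusted p = 0.0398). The call ended without any 1 of 7 arrays, namely 05, 09 and 19 of brown day 4 or 07, 08, 12 and 22 of brown day 7, with adjusted p of 0.0514 to 0.1325, and also with no filter (0.0838), array number runs as a fixed block (0.0976) or brown arrays alone (0.0582). Its brown minus white differences were -0.49 ± 0.24 at day 4 (adjusted p = 0.141) and 0.02 ± 0.25 at day 7 (adjusted p = 0.97). The day 4 difference passed without brown day 4 array 06 (0.0462) or white day 4 array 41 (0.036).

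**Figure D2:**
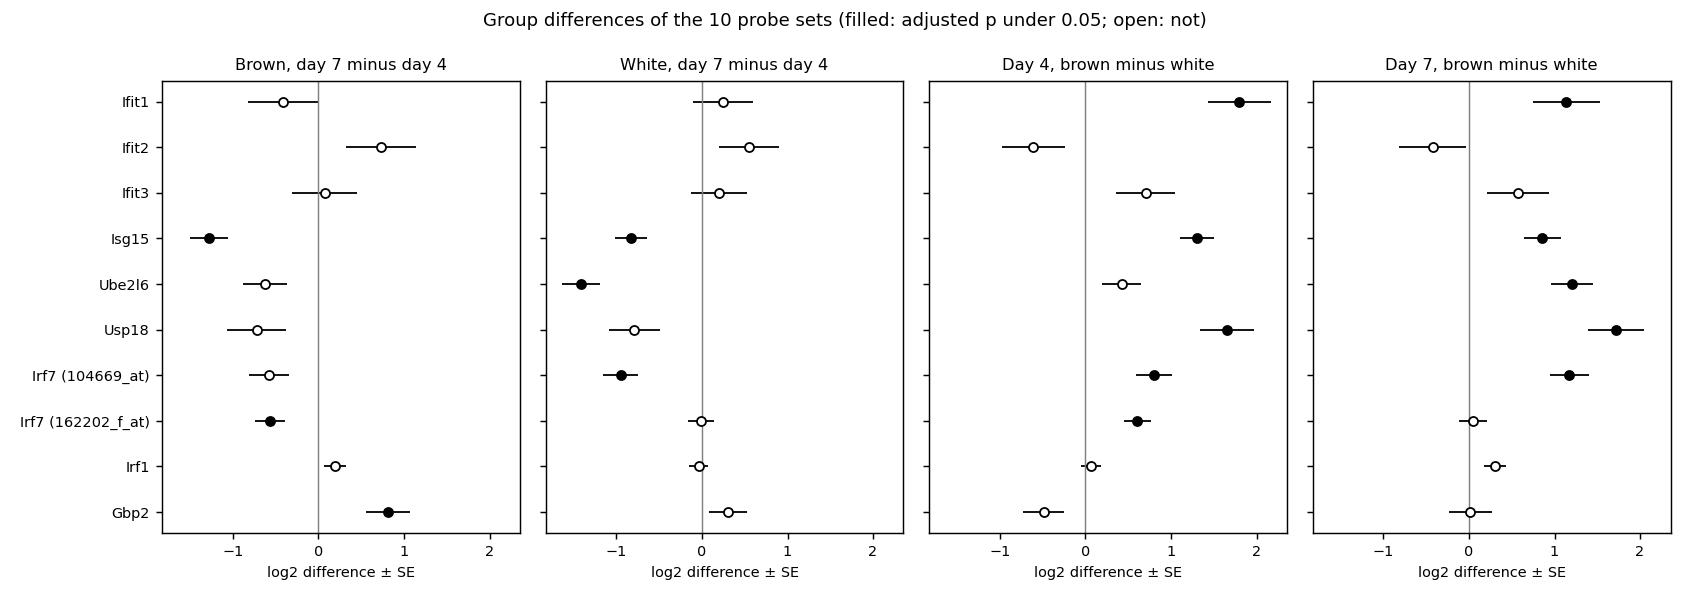
Log2 difference with its SE for each of the 10 probe sets (rows) in the 4 comparisons (panels), filled where the adjusted p is below 0.05. In the brown minus white panels, 5 filled points at each day lie right of 0 and none lies left of it.

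Beside these tests, the arrays of compared groups did not overlap at all for 2 probe sets with time in brown cells (Isg15 and Usp18), against 9.73% of all tested probe sets. For time in white cells this held for Ube2l6 alone, against 4.79% of all. Brown and white arrays did not overlap for Isg15 and Usp18 at day 4, against 7.29% of all. At day 7 they did not overlap for Isg15, Ube2l6, Usp18 and the Irf7 probe set 104669_at, against 18.1% of all.

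No member passed the test for a different change with time in brown and white cells: 0 of 10 probe sets in limma, against 0.214% of all. Of the 10, 2 had an unadjusted p below 0.05. So few of all probe sets passed that this does not show equal changes. The differences of change, brown minus white, ran from -0.66 to 0.79. Ube2l6 had the highest, 0.79 ± 0.34 (adjusted p = 0.548). The brown and white changes with time share no array, nor do the brown against white differences of both days. All use the same fit and estimate of spread, and each change with time shares arrays with both brown against white differences. Whether arrays of both days came from the same cultures is not given in the labels.

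**Figure D3:**
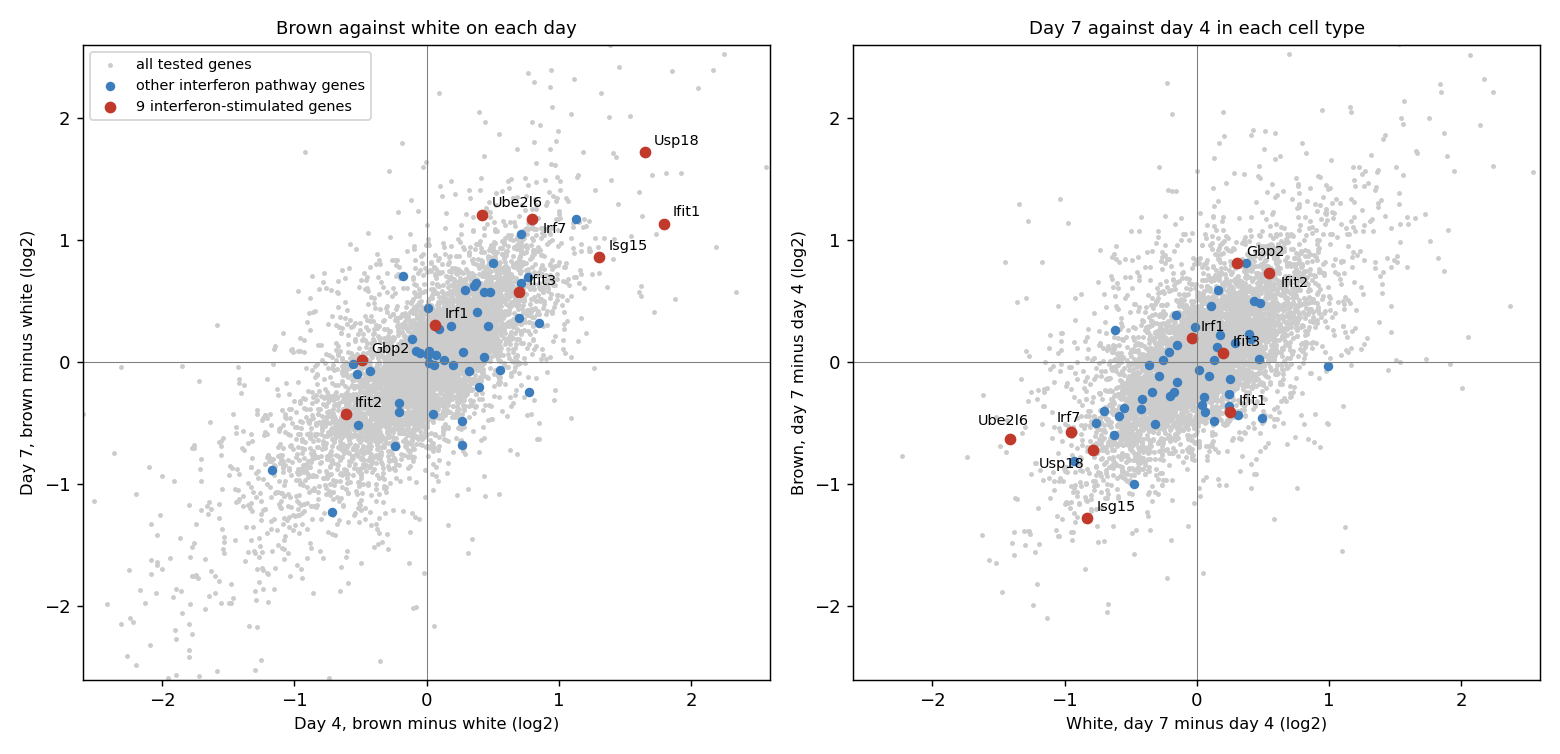
Log2 differences of 6281 genes (grey), of other interferon pathway genes (blue) and of the 9 interferon-stimulated genes (red), with brown minus white at day 4 against day 7 in the left panel and the change with time in white against brown cells in the right panel. The axes end at 2.6 in either direction, which leaves 60 genes outside on the left and 15 on the right, and Isg15, Usp18, Ifit1 and Irf7 lie right of and above 0 in the left panel.

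RNA quality moved with 2 of the comparisons. With the log2 Gapdh ratio as a covariate, 0 of the 3 white calls with time and 0 of the 5 brown against white calls at day 7 passed, while the share of all probe sets called was 0.441% and 3.26%. The change of Isg15 with time in white cells was then -0.30 (adjusted p = 0.761), and the day 7 brown minus white difference of Usp18 was 1.51 (adjusted p = 0.165). All 5 calls of brown against white at day 4, where the mean ratios of the groups were 0.884 and 0.943, passed with the covariate. The ratio was 1.09 to 1.54 on white day 7 arrays and at most 1.10 on any other array. The covariate thus nearly marks the white day 7 group, so this fit cannot separate RNA quality from group. The part of RNA quality in the differences was not tested.

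Array numbers gave a further view of the change with time. In 5 runs of 4 consecutive numbers, 2 day 4 arrays were followed by 2 day 7 arrays, though what the numbers mean is not given in the labels. Within these runs Isg15, Ube2l6 and the Irf7 probe set 104669_at were lower at day 7 in 5 of 5, by the mean log2 signal of 2 arrays a day. The Irf7 probe set 162202_f_at was lower in 4 of 5, with 0.10, -0.19 and -0.03 in the 3 white runs. These runs reuse arrays of the tests above, and the share of all probe sets lower in 5 of 5 was not taken. Single arrays overlapped in some runs, as in that of arrays 09 to 12, where Ube2l6 was 126 and 119 at day 7 against 111 and 273 at day 4. For Isg15 the log2 differences were -1.60 and -1.25 in the 2 brown runs and -0.60, -1.0 and -0.53 in the 3 white runs. Usp18 was lower in 4 of 5, with 0.16 in the run of white arrays 41 to 44, and Gbp2 was lower in 0 of 5, from 0.02 to 1.06. White arrays 41 to 44 stood apart from the other runs for Ifit1 too, at 1.78 against -0.75 to -0.05.

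**Figure D4:**
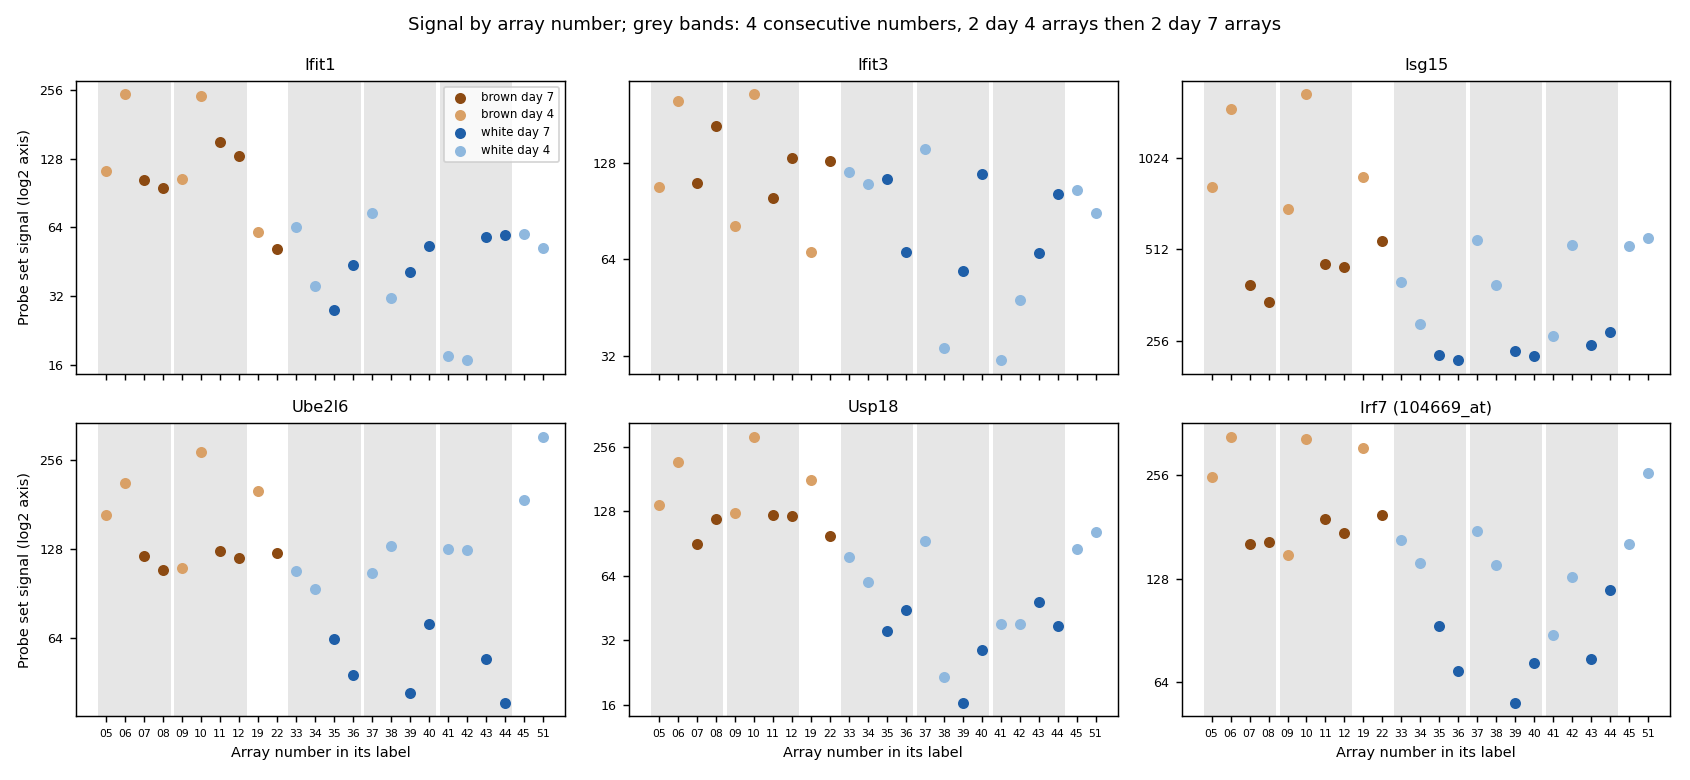
Signal (vertical axis, log2 scale) against the number in the array label, with colours for the 4 groups and grey bands for the 5 runs of 4 consecutive numbers. By the mean log2 signal of the 2 arrays of each day, Isg15 and Ube2l6 are lower at day 7 within all 5 bands, although single arrays of the days overlap in some bands.

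White day 4 arrays 45 and 51, which belong to no run, held Ube2l6 signals of 188 and 308 against 93.7 to 131 on the other 6 white day 4 arrays. Without both arrays, all 3 white calls with time passed, at -0.71 for Isg15 (adjusted p = 0.019), -1.15 for Ube2l6 (adjusted p = 0.000289) and -0.81 for Irf7 104669_at (adjusted p = 0.00949). Without them Ube2l6 was also higher in brown than in white cells at day 4, by 0.69 (adjusted p = 0.00789), and Ifit2 was lower, with a log2 difference of -0.92 (adjusted p = 0.0486). With all arrays neither difference passed (adjusted p = 0.204 and 0.249). Arrays 45 and 51 held the highest Ube2l6 signals of white day 4 and the lowest Ifit2 signals, 16.9 and 10.2. Leaving them out therefore had to widen both differences.

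Arrays of a group also differed from each other in these genes together. At day 7 the median SD of log2 signal over the 10 probe sets was 0.27 in brown and 0.36 in white cells, against 0.30 and 0.28 over all tested probe sets. At day 4 it was 0.52 in brown and 0.55 in white cells, against 0.32 and 0.38 over all. On brown day 4 array 10, 9 of 9 genes lay above their group mean, by 0.52 on average, and on white day 4 array 41, 0 of 9 did, with an average of -0.68. Over 24 arrays, deviations from the group means correlated with a median Pearson r of 0.37 over the 36 pairs of the 9 genes, against 0.01 over all pairs of tested genes. These values share their arrays and scaling. The pairs ran from -0.53 for Ifit2 with Ube2l6 to 0.70 for Ifit3 with Usp18. Isg15 and Irf7 had 0.68, and so did Ifit1 and Ifit3. Ifit2 and Irf1 stood outside this pattern, each with a positive r to 2 of the 8 other genes and medians of -0.17 and -0.11.

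**Figure D5:**
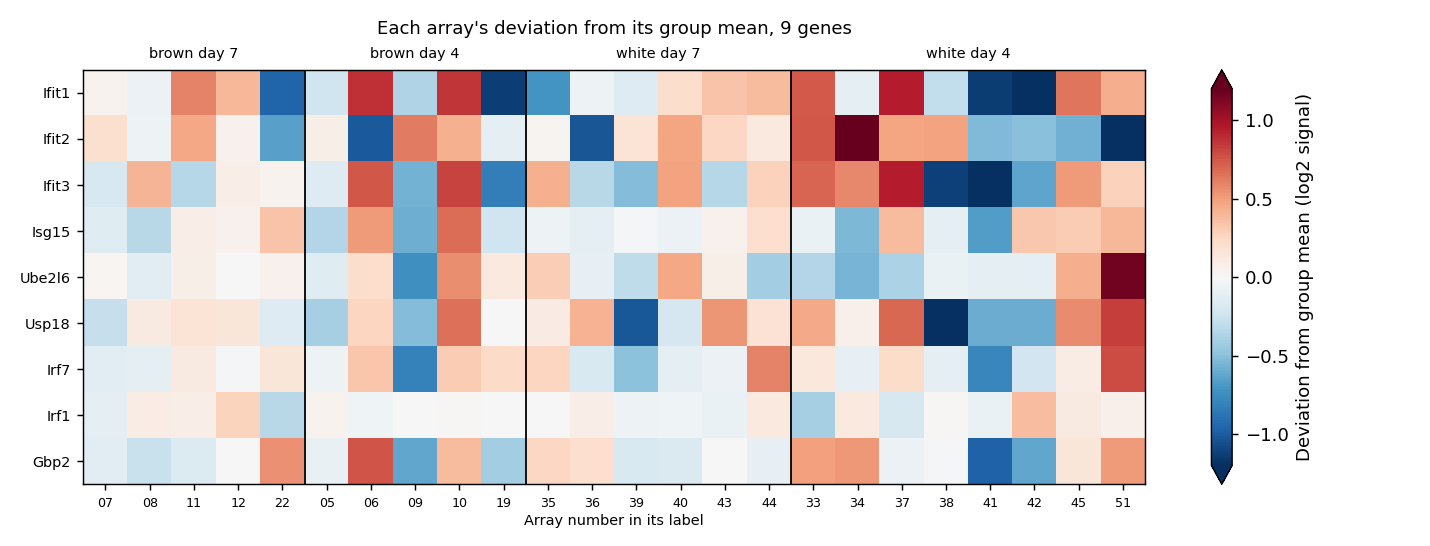
Deviation of log2 signal from the group mean for the 9 genes (rows) on the 24 arrays (columns), with colours that saturate at 1.2 in either direction. Brown day 4 array 10 is above its group mean for all 9 genes and white day 4 array 41 is below it for all 9.

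Of the 6272 other genes tested, the 8 whose deviations followed the mean deviation of the 9 most closely included 4 from the lists of the interferon pathway. These were Jak1, the kinase shared by both interferon receptors (r = 0.73), the immunity-related GTPases Irgm2 (r = 0.73) and Ifi47 (r = 0.71), and Ifi204, of a family of DNA-binding interferon-induced proteins (r = 0.71). The others were Golph3l, a Golgi protein (r = 0.77), Cpxm1, a carboxypeptidase-like protein (r = 0.77), Serpina3n, a secreted serine protease inhibitor (r = 0.73), and Plac8 (r = 0.71). Without the 2 arrays farthest from the median, brown day 4 array 09 and white day 4 array 41, r lay between 0.47 (Ifi47) and 0.72 (Golph3l). These r describe arrays within groups, not group differences. In limma at day 4, Cpxm1 (-2.04, adjusted p = 3.88e-10) and Serpina3n (-2.20, adjusted p = 8.27e-08) were lower in brown than in white cells. Plac8 was lower too (adjusted p = 0.000443), and these genes were also lower at day 7. Cpxm1 and Serpina3n rose with time in brown and white cells. Of the remaining genes, only Irgm2 passed between brown and white cells, higher in brown at day 7 by 0.57 (adjusted p = 0.0336).

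The rest of the pathway was described with a list of 92 genes, of which 60 had a probe set of their own and 46 were tested. Stat2 had no probe set of 1 symbol. Among 25 tested other interferon-stimulated genes, 5 were higher and 0 lower in brown than in white cells at day 4, and 8 were higher and 0 lower at day 7. Over all 6281 tested genes, 11.7% were higher and 12.8% lower at day 4, and 13.2% and 12.3% at day 7. Iigp1, an immunity-related GTPase, was higher by 1.13 ± 0.25 at day 4 (adjusted p = 0.00188) and 1.17 ± 0.27 at day 7 (adjusted p = 0.0021). Ifi35 was higher at day 4 (0.85 ± 0.20), as were the GTPase Igtp (0.71 ± 0.20) and the antiviral Mx2 (0.77 ± 0.26), and at day 7 so were Lgals3bp, a secreted glycoprotein (0.65 ± 0.15), and Ifitm3, which blocks virus entry (0.62 ± 0.15). Gbp3, a relative of Gbp2, was higher on both days, by 0.71 ± 0.26 and 1.05 ± 0.27. The medians of the 25 differences were 0.32 at day 4 and 0.27 at day 7.

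With time, 3 of the 25 fell and 1 rose in brown cells, and 4 fell and 1 rose in white cells. Over all tested genes the shares were 6.5% lower and 6.48% higher in brown and 10.4% lower and 9.03% higher in white cells, so most of these counts were near the background. Ifitm3 fell in both, by 0.50 ± 0.16 in brown and 0.76 ± 0.13 in white cells, as did Pml, the organiser of nuclear bodies, by 0.51 ± 0.13 and 0.31 ± 0.11. Ifi35 fell by 1.0 ± 0.22 in brown cells, where Ifi27, a small interferon-induced protein, rose by 0.81 ± 0.17. In white cells Adar, the enzyme that edits double-stranded RNA, fell by 0.70 ± 0.19, Irgm2 fell by 0.59 ± 0.18 and Gbp7 rose by 0.99 ± 0.34. Of the genes that act with Isg15, Uba7, its activating enzyme, fell by 0.55 ± 0.12 with time in white cells (adjusted p = 0.00326), and Trim25, a ubiquitin ligase, was higher in brown than in white cells by 0.48 ± 0.18 at day 4 (adjusted p = 0.0498) and 0.58 ± 0.19 at day 7 (adjusted p = 0.025).

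Receptors and signalling genes were counted in the same way. Of 12 tested, 1 was higher and 4 were lower in brown than in white cells at day 4, and 0 were higher and 2 lower at day 7, where the shares over all tested genes were those given above. The chains of the type I receptor were lower in brown cells at day 4, with log2 differences of -0.42 ± 0.13 for Ifnar1 (adjusted p = 0.0178) and -0.52 ± 0.18 for Ifnar2 (adjusted p = 0.0405), and the gamma receptor chain Ifngr1 was higher, by 0.70 ± 0.20 (adjusted p = 0.0112). Ifnar1 rose with time in brown cells, by 0.46 ± 0.14 (adjusted p = 0.0348). The other gamma chain, Ifngr2, gave -0.18 ± 0.27 at day 4 (adjusted p = 0.694) and 0.71 ± 0.29 at day 7 (adjusted p = 0.0722). Socs3, a feedback inhibitor of cytokine receptors, was lower in brown cells, with differences of -1.17 ± 0.23 at day 4 and -0.88 ± 0.24 at day 7. Socs3 had 2 probe sets, of which only this one is given. It has the same suffix as the second Irf7 set and may also bind related sequences. Pias1, a SUMO ligase that restrains cytokine signalling, was also lower in brown cells, with -0.72 ± 0.22 at day 4 and -1.23 ± 0.23 at day 7. Socs1, the feedback inhibitor induced by interferons, fell with time by 0.81 ± 0.22 in brown (adjusted p = 0.0154) and by 0.93 ± 0.19 in white cells (adjusted p = 0.00133). Irf9 fell by 0.41 ± 0.13 in white cells (adjusted p = 0.0243), with -0.31 ± 0.15 in brown cells (adjusted p = 0.197). Of 3 other tested interferon regulatory factors, Irf5 was higher in brown than in white cells at day 4, by 0.55 ± 0.17 (adjusted p = 0.0184).

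Interferon ligands differed in brightness. Of 12 listed genes 9 were on the array, 4 were tested and 0 passed in any of the 4 group comparisons. Ifna5 was the brightest, with medians of 92.2 in brown day 7, 66.8 in brown day 4, 90.9 in white day 7 and 63.4 in white day 4 cells. Its probe set has the same suffix as the second Irf7 set, as have those of Ifna9 and Ifnab, and may also bind related sequences. The signal therefore cannot be assigned to the Ifna5 transcript alone. Ifng lay at the floor on 23 of 24 arrays. Ifnb1 reached at most 31.2 and lay at the floor on 9 arrays. Several antiviral genes were also too dim for testing, among them Mx1 and Rsad2, both at the floor on 19 of 24 arrays, and Cxcl10, at the floor on 16.

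Markers of other cells were set beside these differences, and their counts stand against the following shares of all 6281 tested genes. At day 4, 11.7% were higher and 12.8% lower in brown than in white cells, and at day 7 13.2% and 12.3%. With time 6.48% rose and 6.5% fell in brown cells, and 9.03% rose and 10.4% fell in white cells. The summed signal of 14 macrophage markers ran from 659 to 865 in brown day 7, 507 to 592 in brown day 4, 870 to 1473 in white day 7 and 639 to 1882 in white day 4 cells. Cd14 alone made up a large part of this sum, with medians of 382, 292, 554 and 595 in the same order of groups. Of the 9 macrophage markers tested, 4 were lower and 0 higher in brown than in white cells on each day. Itgam, Mrc1, Marco and Fcer1g were at the floor on at least 12 arrays. With time 1 macrophage marker was higher in brown and 2 in white cells, among them Lyz2, by 2.21 in brown and 2.24 in white cells on the log2 scale. Endothelial markers, 7 in number, summed to 487 to 866 in brown day 7 and 342 to 512 in brown day 4 cells, against 123 to 286 in white day 7 and 162 to 327 in white day 4 cells, and 3 of 5 tested were higher in brown cells on each day. Of 4 tested lymphocyte markers 0 passed in any comparison. The dendritic cell list, with 3 tested, had 1 marker lower in brown cells at day 4 and 2 at day 7. Of 7 tested adipocyte markers, 2 rose with time in brown and 4 in white cells, Adipoq by 1.19 in brown and 1.59 in white cells, and 0 fell. Between brown and white cells, 2 were higher and 1 lower in brown at day 4, and 1 higher and 2 lower at day 7. Of 5 tested fibroblast and preadipocyte markers, 2 were higher and 3 lower in brown cells at day 4, and 1 higher and 3 lower at day 7. With time 2 rose and 1 fell in brown cells, and 1 rose in white cells. The part of these cells in the differences was not tested.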

How the data were processed

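Affymetrix MG-U74Av2 arrays of 24 samples were used, with the group and array number of each taken from its title. Linear signal intensities of probe sets were deposited by the authors. The submitters' processing notes name MAS5, whose version and settings are not given in the sources used here. Trimmed means per array were 150.1 before any step taken here. Each array was scaled to a 2% trimmed mean of 150, values under the 20th percentile of all (8.21) were set to it, and log2 values were used. The filter retained probe sets where at least 5 arrays held them above that array's 40th percentile, and 66 control probe sets were removed, which left 8397, with 1.56% of values at the floor. Symbols came from the platform annotation (10855 probe sets with 1 symbol, 396 with several, 1237 with none), and positions from RefSeq GRCm38.p6. A gene was represented by its brightest tested probe set.

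The 4 group means were fitted with limma 3.58.1 (lmFit, eBayes with trend, R 4.3.3, 20 residual degrees of freedom), two-sided, with Benjamini-Hochberg adjustment within each of 5 contrasts and a threshold of 0.05. Errors given after ± are standard errors of this fit, or SD where so named. The fit was tested on simulated data. Alternatives were no floor, a floor at the 40th percentile, no filter, a filter on 12 arrays, quantile normalization, no rescaling, array weights, the Gapdh ratio as a covariate, leaving out white day 4 arrays 45 and 51, array number runs as a random or fixed block, only the arrays of a contrast, and leaving out each array in turn.

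The genes and lists were chosen with earlier results of these data known. Named were every probe set of the 9 genes; of the pathway lists, up to 4 called genes per list and comparison by adjusted p, with Stat2, Irf9, Socs1 and the receptor chains in any case; and the 8 genes most correlated with the mean deviation of the 9. A further gene under this rule is not reported here. Pml and Gbp3 are also given where they ranked lower. Mx1, Rsad2, Cxcl10, Ifnb1, Ifng and Ifna5 were named for their signal level after their values were seen. The number of arrays limits the precision.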

Additional observations from a re-analysis of the deposited data

Results flagged for a closer look

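In 40 groups of arrays, 4 for each of the 10 probe sets, 1 array lay apart from the rest of its group. Ifit2 had a signal of 18.1 on white day 7 array 36, while the other 5 white day 7 arrays lay between 37.7 and 51.1. The gap to the nearest array was 0.707 of the range of the group. Chance marks about 1 in 20 groups in this way.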

How the results depend on the processing

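No paired analysis was possible because no array number is shared between groups. Runs of consecutive numbers, whose meaning the labels do not give, were fitted as blocks instead. Of the 12 alternatives, the Gapdh ratio as a covariate took both the white count with time (3 probe sets) and the brown against white count at day 7 (5) to 0. Array weights took the brown count with time to 5 and the fixed array number block took it to 1, from 3. Leaving out single arrays gave 1 to 4 calls with time in brown cells, 3 to 4 in white cells, 5 to 6 for brown against white at day 4, 4 to 6 at day 7 and 0 for the difference of changes. Signs turned only for values that had not passed. Ifit3 with time in brown cells was -0.10 with array weights and -0.15 with the fixed block, and Irf1 with time in white cells was 0.0069 with array weights and 0.14 with the covariate. At day 7, brown minus white, Gbp2 was -0.071 with array weights, -0.32 with the covariate and -0.050 with the random block, and Ifit3 was -0.23 with the covariate. Without single arrays, Gbp2 at day 7 ran from -0.12 to 0.084, Ifit3 with time in brown cells from -0.14 to 0.27, Irf1 in white cells from -0.10 to 0.014, and Irf7 162202_f_at from -0.082 to 0.19 at day 7 and from -0.053 to 0.055 in white cells. The causes were not tested. Signals near background are imprecise, which touches Ifit2 most.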
